A study of Homo sapiens with 6 samples.

Results

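The genes described here are 9 targets of the transcription factor STAT5, which BCR-ABL activates: the feedback inhibitors Cish, Socs1, Socs2 and Socs3, the kinases Pim1, Pim2 and Pim3, the cytokine gene Osm and the transcriptional regulator Id1. They were taken by gene name from a deposited table of 22413 genes, and all 9 were found in it. BaF3-T315I is a murine haematopoietic line, in its parental form dependent on the cytokine IL-3, that was stably transfected with BCR-ABL carrying the T315I mutation. The mRNA of 3 control samples and of 3 samples exposed to 1.1 µM of I13, a histone deacetylase inhibitor, for 48 h was sequenced, and all 6 samples carry the same BCR-ABL transgene. The labels give neither the vehicle nor the time of the control, and whether the line is 1 clone is not given in the sources used here. The labels name the organism as human, whereas every row of the table carries a mouse gene identifier, so the values were read as mouse genes.

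STAT5 is phosphorylated by JAK kinases at cytokine receptors or by BCR-ABL itself, moves to the nucleus and binds near genes that it switches on. CIS, the product of Cish, and the SOCS proteins then dampen the signal, by covering receptor sites or inhibiting JAKs and by bringing in a ubiquitin ligase. The PIM kinases are active as soon as they are made, so that their activity largely follows the amount of protein, and they favour survival and growth. Oncostatin M is a secreted cytokine of the IL-6 family, and ID1 binds E proteins and keeps them from DNA. Cish, Osm, Pim1, Socs2 and Id1 are classical responses of BaF3 cells to IL-3 and to active STAT5.

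All levels are in FPKM, fragments counted on a gene and scaled to its length and to the size of its library. Library totals were 16762119 to 17722950 fragments, so that depth differed little between the samples. Of the 9 genes, 8 had a mean of at least 0.5 FPKM over the 6 samples and were tested among 12163 genes with limma on log2(FPKM + 0.1). Pim3 lay under this limit. Replicate numbers are shared by the 2 groups and were taken to pair the samples, from correlations in these same data and without a test. Values from a model that also holds the replicate number (the replicate block) are therefore given where they differ in kind. The paper says of its results in general that they stem from independent experiments, but neither it nor the labels say whether the sequenced samples of a group were separate cultures, and the p-values measure only the spread between these samples. In bulk RNA, a change in every cell and a change in the share of some cells cannot be told apart. Of 10 genes listed for an IL-3 dependent haematopoietic line, 9 were found, all with a mean of at least 0.5 FPKM, and their summed level was 801.3 to 1381 FPKM in the controls and 1436 to 2235 FPKM after I13, most of it from the receptor genes Csf2rb and Csf2rb2. Of 11 markers of other cell types, 6 were found and 4 of these had a mean under 0.5 FPKM. Alb was listed at 0 in 5 samples. The summed level of the 6 was 36.07 to 43.13 FPKM in the controls and 43.89 to 48.37 FPKM after I13, most of it Pecam1, and the part of these markers in the results was not tested.

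The levels of the 9 genes spanned a wide range. In the controls Pim1 was the most abundant, with 143 ± 18.5 FPKM (SD, n = 3), and it stood above Id1, with 65.6 ± 26.8 FPKM (SD, n = 3), in every sample. Cish and Osm followed with control means of 28.1 and 25.1 FPKM and overlapping ranges, and then Socs1 and Pim2 with 12.03 and 11.37 FPKM, whose control ranges overlapped with each other and with that of Osm. Socs2 and Socs3 were low, with control means of 2.59 and 1.44 FPKM, and Pim3 was hardly present, with 0.257 FPKM. After I13 the order of the means was the same except that Osm stood before Cish, Pim2 before Socs1 and Socs3 before Socs2.

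**Figure D1:**
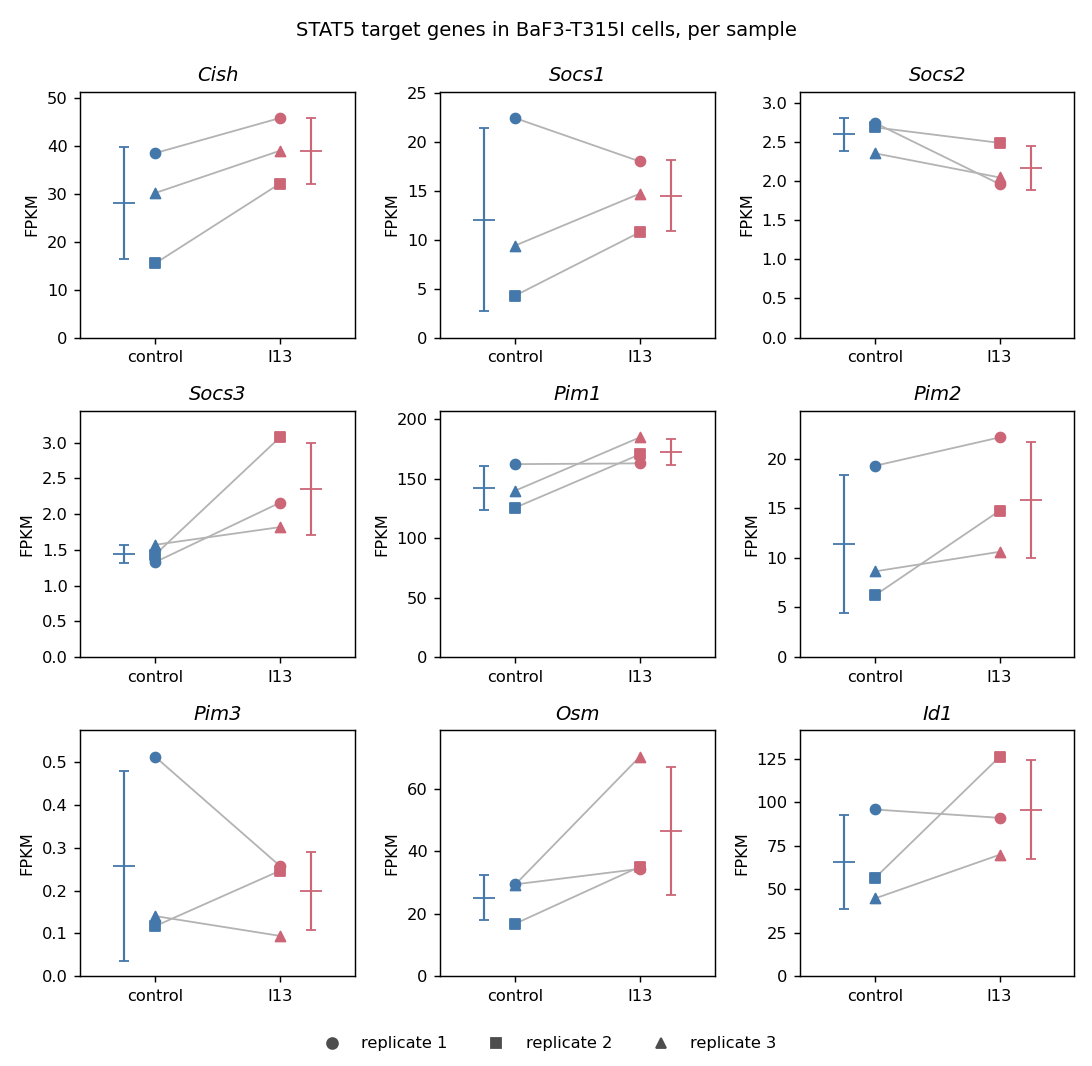
Level in FPKM (vertical axes from 0) of the 9 STAT5 target genes in the 3 control and 3 I13 samples, with a marker shape for each replicate number and grey lines joining samples of the same number. Bars beside the points give the mean and SD of each group. The I13 samples lay above all controls for Socs3, Pim1 and Osm, and control replicate 2 was the lowest of the 6 samples for Cish, Socs1, Pim1, Pim2 and Osm.

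The levels of 7 of the 8 tested genes were on average higher after I13, as were those of 49.2% of all genes tested. None of the 8 passed both thresholds, which were 0.05 for the adjusted p and 0.58, a 1.49-fold change, for the size of the log2 fold change. Of all 12163 genes tested, 0.0411% passed them. At an unadjusted p below 0.05 from limma, 3 of the 8 genes were higher, Socs3, Pim1 and Osm, and 0 were lower, against 7.79% and 10.8% of all genes tested. The same 3 genes were those whose control and I13 values did not overlap, which held in the higher direction for 9.82% of all genes tested. With the replicate block 6 of the 8 genes were higher at an unadjusted p below 0.05, Cish, Socs3, Pim1, Pim2, Osm and Id1, against 13.2% of all genes tested. None of them was called, where 1.89% of all genes tested were, and their adjusted p in limma with the block lay between 0.077 for Osm and 0.166 for Id1. Without replicate 2 the blocked fit had 2 of the 8 genes higher at an unadjusted p below 0.05 from limma. In 5 of the 8 genes, Cish, Socs3, Pim1, Pim2 and Osm, the I13 sample was higher in all 3 same-numbered pairs, against 24.1% of all genes tested. With voom on fragments recovered from the FPKM values 0 were called, and with voom and the block 1 was, Osm, where 4.14% of all genes tested were called. These counts are not those of 8 independent genes. Over the 6 samples the Pearson correlation with Cish was 0.944 for Socs1, 0.836 for Pim2, 0.82 for Pim1 and 0.726 for Osm. It was 0.469 for Id1, 0.313 for Socs3 and -0.602 for Socs2. The median log2 fold change was 0.57 over the 8 genes and -0.005 over all genes tested. Its size in the 8 genes depended in part on control replicate 2. Without this sample the log2 fold changes of Cish, Socs1, Pim1 and Pim2 were 0.18, -0.04, 0.195 and 0.23. Those of Socs3, Osm and Id1 were 0.63, 0.58 and 0.505, and that of Socs2 was -0.23. The median over all genes tested was then 0.009.

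**Figure D2:**
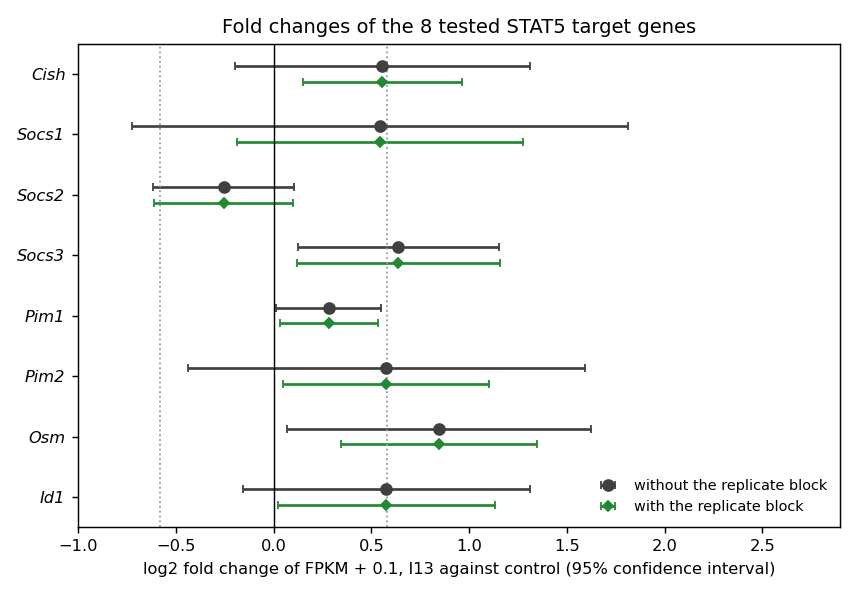
Log2 fold change of FPKM + 0.1 after I13 against the control (horizontal axis) for the 8 tested genes, with the 95% confidence interval from limma without the replicate block (circles) and with it (diamonds), and dotted lines at a size of 0.58 in either direction. The intervals without the block lay above 0 for Socs3, Pim1 and Osm, while with the block only those of Socs1 and Socs2 included 0.

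Cish (ENSMUSG00000032578), whose product competes with STAT5 for docking sites on the receptor, had 38.5, 15.5 and 30.2 FPKM in control replicates 1, 2 and 3. In I13 replicates 1, 2 and 3 it was listed at 45.8, 32.1 and 39.0 FPKM. Every I13 sample was higher than the control of the same number, while the groups overlapped, since I13 replicate 2 lay below control replicate 1. Its log2 fold change was 0.56 (95% confidence interval -0.20 to 1.31, adjusted p = 0.39 from limma). With the block the interval was 0.15 to 0.96 (adjusted p = 0.106 in limma), and with voom and the block the adjusted p was 0.0357 at a log2 fold change of 0.55, short of the fold threshold. Without control replicate 2 the log2 fold change was 0.18. Behind these values stood 1751 to 5185 fragments per sample, for which counting error alone is 1.39% to 2.39%.

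Socs1 (ENSMUSG00000038037), an inhibitor of JAK kinases, varied more among the controls than any other tested member, with 22.4, 4.28 and 9.40 FPKM. The I13 samples held 18.0, 10.8 and 14.7 FPKM, all within the range of the controls. Control replicate 1 was thus the highest and control replicate 2 the lowest of the 6 samples, a 5.24-fold span, and I13 was higher in 2 of the 3 same-numbered pairs. A log2 fold change of 0.55 resulted (95% confidence interval -0.72 to 1.81, adjusted p = 0.62 from limma), and it depended on 2 controls. It was -0.04 without control replicate 2 and 1.15 without control replicate 1. The lowest sample rested on 92 fragments, a counting error of 10.4%.

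Socs2 (ENSMUSG00000020027), a feedback inhibitor best known for the growth hormone receptor, was the only tested gene of the group with a lower mean after I13. Its levels were 2.74, 2.68 and 2.35 FPKM in the controls and 1.96, 2.49 and 2.04 FPKM in the I13 samples. It was lower after I13 in all 3 same-numbered pairs, as were 27.3% of all genes tested, although I13 replicate 2 lay above control replicate 3. The log2 fold change was -0.26 (95% confidence interval -0.62 to 0.11, adjusted p = 0.407 from limma).

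Socs3 (ENSMUSG00000053113), which inhibits JAKs at receptors of the IL-6 family, was listed at 1.33, 1.43 and 1.57 FPKM in the controls. After I13 it was listed at 2.16, 3.07 and 1.82 FPKM. The groups did not overlap, and I13 replicate 2 was the highest. On the log2 scale the difference was 0.64 (95% confidence interval 0.12 to 1.15), with an adjusted p of 0.196 in limma without the block and of 0.126 with it. It rested on 68 to 149 fragments per sample, and counting error reached 12.1%. The level of Socs3 was 0.484 to 0.668 times that of Socs2 in the controls and 0.889 to 1.24 times in the I13 samples. This ratio did not overlap between the groups, but it is made from the values already given, so it is no separate result. The FPKM of Socs2 is relative to a gene model of 9531 bases, and a shorter model would raise its level in all samples alike.

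Pim1 (ENSMUSG00000024014), the most abundant of the 9, was listed at 162, 126 and 140 FPKM in the controls. The I13 samples held 163, 171 and 185 FPKM. The groups did not overlap, but the lowest I13 sample and the highest control, both of replicate 1, were nearly equal. The log2 fold change of 0.28 (95% confidence interval 0.01 to 0.55, adjusted p = 0.249 from limma) was the smallest in size among the higher genes. It was 0.195 without control replicate 2 and 0.38 without control replicate 1. With 5843 to 8537 fragments per sample its counting error was at most 1.31%.

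Pim2 (ENSMUSG00000031155), a kinase that shares substrates with PIM1, followed the pattern of Socs1 more than that of Pim1. It was listed at 19.3, 6.21 and 8.63 FPKM in the controls and at 22.1, 14.7 and 10.6 FPKM in the I13 samples. Replicate 1 was the highest in both groups, the groups overlapped, and I13 was higher in all 3 same-numbered pairs. A log2 fold change of 0.576, just under the fold threshold, was found (95% confidence interval -0.44 to 1.59, adjusted p = 0.506 in limma). With the block the interval was 0.05 to 1.10. It was 0.23 without control replicate 2 and 1.04 without control replicate 1. The ratio of the Pim1 to the Pim2 level ran from 8.42 to 20.2 in the controls and from 7.36 to 17.4 after I13.

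Pim3 (ENSMUSG00000035828) was listed at 0.513, 0.117 and 0.141 FPKM in the controls and at 0.258, 0.247 and 0.0945 FPKM in the I13 samples. These values stand for 22, 5 and 6 fragments against 11, 10 and 4, with a counting error of at least 21.3%, and no difference was detectable at this depth. Without a filter on low values the log2 fold change was -0.14 (95% confidence interval -1.34 to 1.07).

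Osm (ENSMUSG00000058755), the gene of the cytokine oncostatin M and a long-known immediate target of STAT5, changed most on the log2 scale among the 8 tested genes. Its levels were 29.4, 16.8 and 29.2 FPKM in the controls. In the I13 samples they were 34.3, 35.002 and 70.2 FPKM. All I13 samples lay above all controls, and I13 replicate 3 stood well above the other two. They amounted to a log2 fold change of 0.85, or 1.8-fold (95% confidence interval 0.07 to 1.62), with an adjusted p of 0.235 in limma without the block and of 0.077 with it. With voom and the block the adjusted p was 0.0166, and Osm passed both thresholds. Without I13 replicate 3 the log2 fold change was 0.51, under the fold threshold, and without control replicate 2 it was 0.58.

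Id1 (ENSMUSG00000042745), an inhibitor of the DNA binding of E proteins, was the second most abundant gene of the 9. It was listed at 95.8, 56.4 and 44.7 FPKM in the controls and at 91.0, 126 and 69.8 FPKM in the I13 samples. Replicate 1 hardly differed between the groups, while I13 replicates 2 and 3 lay above their controls. The log2 fold change was 0.576, just under the fold threshold (95% confidence interval -0.16 to 1.31, adjusted p = 0.364 in limma). With the block the interval was 0.02 to 1.13. It was 0.34 without control replicate 3 and 0.89 without control replicate 1.

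The controls differed from each other in most of these genes. Control replicate 2 was the lowest of the 6 samples in 5 of the 8 tested genes, Cish, Socs1, Pim1, Pim2 and Osm, against 14.9% of all genes tested. Control replicate 1 was the highest control in 7 of the 8, with Socs3 as the exception, against 24.7% of all genes tested. The SD of log2(FPKM + 0.1) among the controls was 0.68 for Cish, 1.18 for Socs1 and 0.83 for Pim2, each above that of at least 94.0% of the genes tested. The median over all genes tested was 0.18. Socs2 and Socs3, with an SD of 0.12 and 0.11, lay under this median. Among the I13 samples the SD was 0.26 for Cish, 0.37 for Socs1, 0.53 for Pim2, 0.09 for Pim1 and 0.43 for Id1, in each case lower than among the controls. It was higher than among the controls for Socs2 (0.175 against 0.115), Socs3 (0.37 against 0.11) and Osm (0.59 against 0.46). Whether the spread of the controls differs from that of the I13 samples was not tested.

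**Figure D3:**
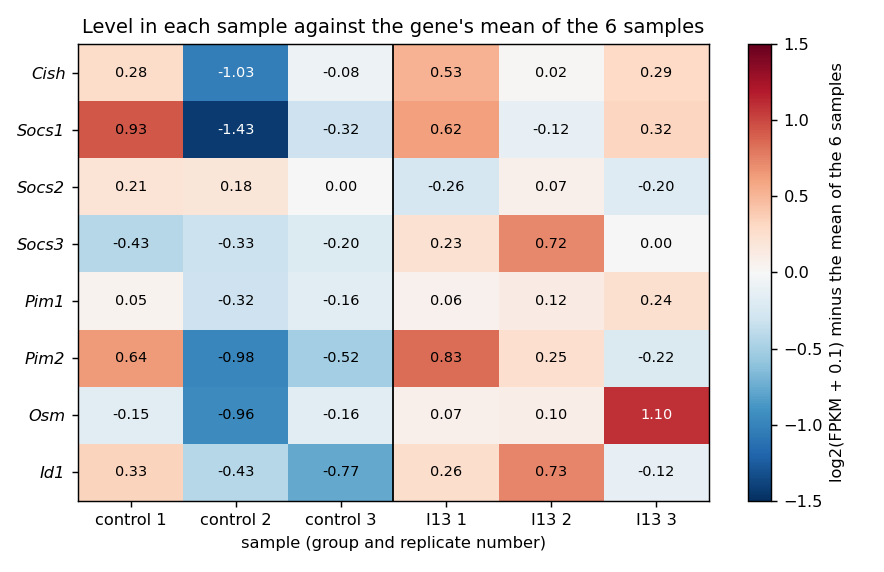
Log2(FPKM + 0.1) of each tested gene in each sample (columns by group and replicate number) minus the mean of the gene over the 6 samples, in colour and as printed values. Control replicate 2 lay between -0.96 and -1.43 for Cish, Socs1, Pim2 and Osm, and Osm reached 1.10 in I13 replicate 3.

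The share of a gene's variation that went with the condition or with the replicate number also differed within the group. Of the sum of squares of Cish over the 6 samples, 30.7% lay between the conditions and 57.1% between the replicate numbers. For Socs1 these shares were 12.7% and 68.3%, and for Pim2 they were 20.4% and 66.2%. For Socs3 and Pim1 the larger share lay between the conditions, with 67.0% and 58.3%, against 13.1% and 13.6% between the replicate numbers. Over the 8 genes the median shares were 41.2% and 39.1%, and over all genes tested they were 25.9% and 42.2%. There are more replicate numbers than conditions, so without any effect the share of the replicate number would tend to be the larger. Replicate 2 had the largest difference within a pair for Cish (1.05 on the log2 scale), Socs1 (1.31), Socs3 (1.05), Pim1 (0.44), Pim2 (1.24) and Id1 (1.16). For replicate 1 the differences were 0.25, -0.32, 0.66, 0.01, 0.20 and -0.07 in the same order of genes. In Osm the pair of replicate 3 differed most, by 1.26.

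The genes most like Cish over the 6 samples were sought by the Pearson correlation of log2(FPKM + 0.1) with it among 10869 other genes with a mean of at least 1 FPKM. The first 3 were Lama5 (r = 0.99, Spearman's rho = 0.886), Gm37881 (r = 0.99, rho = 0.943) and Hemk1 (r = 0.99, rho = 1.0), which describes these 6 libraries only. Hemk1, the gene of a methyltransferase, was listed at 35.2, 12.6 and 24.0 FPKM in the controls and at 41.3, 25.2 and 36.1 FPKM after I13, so that it ordered the samples exactly as Cish did. In the human assembly GRCh38.p14 the RefSeq table has HEMK1 and MAPKAPK3 as the direct neighbours of CISH. Mouse positions were not analysed here, and whether Hemk1 and Cish share fragments was not tested. Mapkapk3 was listed at 12.4, 9.08 and 10.2 FPKM in the controls and at 10.9, 9.65 and 13.3 FPKM after I13.

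Other genes with a place in STAT5 signalling were counted from lists, of which none had a gene called without the block. Of 10 other STAT5 targets 8 were tested, and all 8 had a log2 fold change above 0, with a median of 0.21. In this list 1 gene was higher at an unadjusted p below 0.05 from limma, Myc, and 0 were lower, against 7.79% and 10.8% of all genes tested. The block gave 3 and 0 of the 8, against 13.2% and 14.8%. Myc, a driver of growth, had a mean of 148 FPKM in the controls and 192 FPKM after I13 (log2 fold change 0.37, adjusted p = 0.252 from limma). The survival genes Bcl2l1 and Mcl1 and the cyclin gene Ccnd2 had log2 fold changes of 0.04, 0.05 and 0.03, with standard errors of 0.20, 0.11 and 0.13. Il2ra, the alpha chain of the IL-2 receptor, varied most. It was listed at 96.8, 5.89 and 32.3 FPKM in the controls and at 166, 46.8 and 127 FPKM after I13, with control replicate 2 again the lowest and I13 higher in all 3 pairs. Its log2 fold change of 1.91 had a standard error of 0.97 (adjusted p = 0.333 in limma). With the block the 95% confidence interval was 0.95 to 2.87 and the adjusted p 0.0606, and Il2ra was called with voom and the block (adjusted p = 0.00972) and in the blocked fit without replicate 1.

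**Figure D4:**
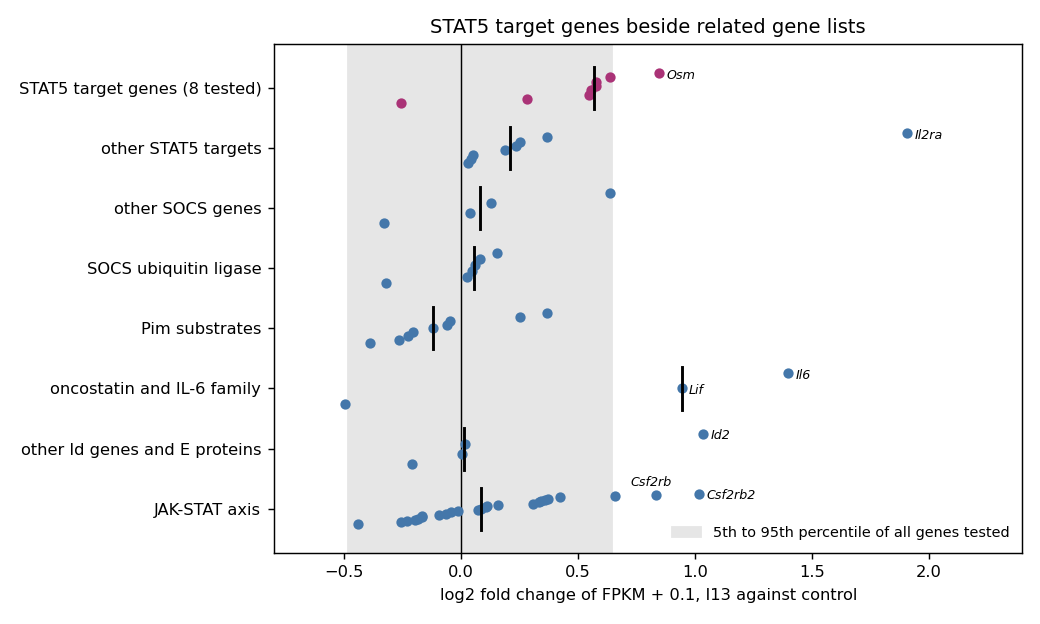
Log2 fold change of FPKM + 0.1 after I13 against the control (horizontal axis) of each tested gene in 8 groups, with a vertical bar at the median of each group and a grey band from the 5th to the 95th percentile of all genes tested, -0.48 to 0.64. The median of the STAT5 target genes was 0.57, and those of the other STAT5 targets and of the genes of the JAK-STAT axis were 0.21 and 0.09.

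Of the other members of the SOCS family, all 4 were tested. Socs6 was listed at 4.38, 5.05 and 4.05 FPKM in the controls and at 7.04, 7.35 and 6.64 FPKM after I13, a difference of 0.64 on the log2 scale. Its adjusted p was 0.104 in limma, and 0.0447 with the block, where it was called. The 3 samples of each group lay close together, and the groups did not overlap, which held in the higher direction for 9.82% of all genes tested. Socs7 was lower at an unadjusted p below 0.05 from limma, with a log2 fold change of -0.33 (adjusted p = 0.156). Its groups did not overlap either, which held in the lower direction for 15.4% of all genes tested. Socs5, the most abundant of these, had a log2 fold change of 0.13. Of the 6 tested subunits of the ubiquitin ligases that SOCS proteins recruit, 0 were higher and 1 was lower at an unadjusted p below 0.05 from limma. All genes tested gave 7.79% and 10.8%. The lower gene was Rbx1, with a log2 fold change of -0.32, and Elob, the most abundant, had one of 0.05.

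Of 9 listed relatives of Osm and receptor genes 3 were tested, and the cytokine genes Lif and Il6 were called with the block, as were 1.89% of all genes tested. Ctf1, also tested, went the other way, with a log2 fold change of -0.495 (adjusted p = 0.333 from limma). It was lower after I13 in all 3 same-numbered pairs, as were 27.3% of all genes tested. Lif was listed at 15.8, 10.1 and 19.9 FPKM in the controls and at 24.5, 19.4 and 47.996 FPKM after I13, a log2 fold change of 0.94 (adjusted p = 0.236 in limma, and 0.0392 with the block). Il6 was listed at 2.72, 2.55 and 8.58 FPKM in the controls and at 7.39, 5.31 and 29.2 FPKM after I13, a log2 fold change of 1.40 (adjusted p = 0.329, and 0.0354 with the block). As in Osm, I13 replicate 3 was the highest and control replicate 2 the lowest sample of both. The receptor genes Osmr and Lifr were looked for by name and were not found among the 22413 genes, so no level can be given for them. Of the 22413 genes, 0 were at 0 FPKM in all 6 samples, so genes without fragments may have been left out. Whether Osmr and Lifr are missing for this reason was not tested.

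Beside Id1, the related gene Id2 was listed at 22.6, 5.70 and 23.3 FPKM in the controls and at 51.5, 14.0 and 36.3 FPKM after I13. Each I13 sample was higher than its same-numbered control, and control replicate 2 was the lowest. Its log2 fold change was 1.03, and it was 0.37 without control replicate 2 and 1.58 without I13 replicate 2. The adjusted p was 0.427 in limma, and 0.0384 with the block, where Id2 was called. The E protein genes Tcf3, Tcf4 and Tcf12, whose products ID proteins bind, had log2 fold changes of -0.21, 0.01 and 0.02. All 9 listed genes for substrates of the PIM kinases were tested, with a median log2 fold change of -0.12, and 2 had a log2 fold change above 0, Myc and Cdkn1a, and 7 below. At an unadjusted p below 0.05 from limma were Myc, which was higher, and Cdkn1b, which was lower, against 7.79% and 10.8% of all genes tested. Eif4ebp1 had the largest change in size, -0.39.

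Upstream of these genes, 25 of 28 listed genes of the JAK-STAT axis were tested, with a median log2 fold change of 0.09. At an unadjusted p below 0.05 from limma 7 of the 25 were higher and 2 lower, against 7.79% and 10.8% of all genes tested. The block called 2 of them, Csf2rb and Csf2rb2, and 1.89% of all genes tested. Stat5a and Stat5b themselves were lower, with log2 fold changes of -0.20 (adjusted p = 0.371 from limma) and -0.26 (adjusted p = 0.186). Stat5b lay between 16.6 and 17.3 FPKM in the controls and between 13.7 and 14.8 FPKM after I13, without overlap, as in the lower direction 15.4% of all genes tested. Jak2 had a log2 fold change of 0.37 (adjusted p = 0.162) and Il3ra, the alpha chain of the IL-3 receptor, one of 0.33 (adjusted p = 0.408). Csf2rb, the shared signalling chain of the IL-3 receptor, was listed at 286, 239 and 463 FPKM in the controls and at 448, 477 and 838 FPKM after I13. Its log2 fold change was 0.83 (adjusted p = 0.22, and 0.0313 with the block). That of its close copy Csf2rb2 was 1.02 (adjusted p = 0.165, and 0.0312 with the block). How fragments that match both copies were counted is not given in the sources used here, so the split between them is uncertain. Among the markers of other cell types the haemoglobin gene Hba-a1, which has a near-identical copy, was called with the block, with 1.18, 0.21 and 0.559 FPKM in the controls and 5.66, 2.94 and 2.11 FPKM after I13. These values rest on 3 to 81 fragments per sample, with a counting error of up to 57.7%.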

How the data were processed

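Samples were grouped by their titles. The authors deposited FPKM values per gene, made without pooling of replicates from stranded mRNA libraries. The submitters' processing notes name Trimmomatic, HISAT2, HTSeq and Cufflinks and the build hg38, although all 22413 rows carry mouse identifiers. Annotation and versions are not given in the sources used here. Every column of sample values was assigned.

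The comparison used log2(FPKM + 0.1) and limma 3.58.1 in R 4.3.3 (eBayes with a trend) in 12163 genes, those whose mean over the 6 samples reached 0.5 FPKM. Adjusted p-values are Benjamini-Hochberg values over all genes tested. A gene was called where the adjusted p was below 0.05 and the log2 fold change reached 0.58 in size. These limits follow the paper, whose text names no test for its sequencing data. On this scale a fold change understates the change of low genes. Whole fragments, a whole gene length and the library totals were recovered from the FPKM values of 22413 genes, within 0.003 fragments, and were used for depth and for voom. Both steps were run on simulated data. For the fits, the simulation held changes larger than that of any tested member and no difference between replicate numbers. It therefore cannot show how well the fits find changes such as those of the members. Counting errors are 1 divided by the square root of the fragments and cover counting only.

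Correlations across genes of deviations from the group means were 0.145, 0.301 and 0.219 for samples of the same replicate number and -0.258 to 0.05 for the others. All 3 were above 0.1, the limit set for this, so the numbers of the labels were taken to pair the samples. Whether the pairing is real was not tested. As deviations from a group mean sum to 0, correlations above 0 for some samples go with ones below 0 for others. No source used here ties a number to a shared batch.

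The members and lists were chosen with earlier results of these data known. From each list the tested gene with the highest mean FPKM, that with the largest change, those called with or without the block and a few fixed genes were named. The 3 genes most like Cish were named by correlation. Socs7, Ctf1, Cdkn1a, Cdkn1b, Tcf3, Tcf4, Tcf12, Mapkapk3 and Alb were named after their values were seen. The alternatives were other pseudocounts, filters, scalings and eBayes settings, the block, voom, and leaving out samples or pairs. Mouse sequences and positions were not analysed here. Figures used matplotlib 3.10.9 (Python 3.11.15).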

Additional observations from a re-analysis of the deposited data

How the results depend on the processing

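Without the block, 0 of the 8 tested members and 0 of the listed genes were called with all 6 samples. This held under every pseudocount, filter, scaling and eBayes setting tried and with voom, where at most 0.0658% of all genes tested were called. When 1 sample was left out, 0 of all 12163 genes were called, so those fits say nothing of the members in particular. With the replicate block 0 members and 7 of the 65 listed genes tested were called, against 1.89% of all genes tested. With voom and the replicate block 1 member, Osm, and 10 of the 65 were called, against 4.14% of all genes tested. Without replicate 1 the blocked fit called 1 member, Osm, with a log2 fold change of 1.16 (adjusted p = 0.0319 from limma), and 4 of the 65 listed genes tested, against 0.682% of all genes tested. Without replicate 2 or 3 it called 0 of all 12163 genes, so these counts ran from 0 to 1 and from 0 to 4. Fewer samples were fitted there. In the log2(FPKM + 0.1) fit with all samples the block changed the calls of Csf2rb, Csf2rb2, Lif, Il6, Id2, Socs6 and Hba-a1 and no other call of a member or listed gene. With voom it also changed, among others, those of Osm and Il2ra. Hemk1, which is on none of the lists, was called with voom and the block too (log2 fold change 0.589, adjusted p = 0.0223 from voom and limma). The members higher at an unadjusted p below 0.05, 3 in number, were 1 with median-ratio scaling and with eBayes without a trend. They were 6 without control replicate 1, 2 without control replicate 3 or I13 replicate 1, and 1 without control replicate 2, I13 replicate 2 or I13 replicate 3. Over all 12163 genes, 2266 had such a p in either direction with all 6 samples, and 1478 to 2482 did when 1 sample was left out. With the block, the members higher at such a p were 6 with all samples and 6, 2 and 4 without replicates 1, 2 and 3. Over all genes tested the block gave 3409 in either direction with all samples, and 2665, 1638 and 3160 without these replicates. The direction was the same in all 20 alternatives for each tested member but Socs1, which ran from -0.035 without control replicate 2 to 1.147 without control replicate 1. With all 6 samples, the log2 fold change of Osm ran from 0.824 to 0.876 and that of Cish from 0.538 to 0.586. The cause of these differences was not tested. Depth limits Pim3 and Hba-a1 most, and Socs3 and Socs1 less.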
